A study of Homo sapiens with 8 samples.

Results

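The genes described here are 10 genes of fatty acid synthesis and desaturation, *SREBF1*, *ACLY*, *ME1*, *ACACA*, *FASN*, *ELOVL6*, *SCD*, *FADS1*, *FADS2* and *ACSL3*, out of 20531 genes listed in each deposited table. They were chosen by symbol, and all 10 were found, with the Entrez identifiers 6720, 47, 4199, 31, 2194, 79071, 6319, 3992, 9415 and 2181. Polyadenylated RNA was sequenced from 2 established human HER2+ breast carcinoma cell lines, SKBR-3 (negative for the estrogen and progesterone receptors) and BT474m1 (positive for both receptors). According to the labels, cultures of each line were kept for 48 h in DMSO (the solvent), in lapatinib at 300 nM, which inhibits the HER2 and EGFR kinases, in JQ1 at 300 nM, which blocks BET bromodomain proteins, or in both compounds. All cultures grew in RPMI medium with serum. Each of the 8 groups held 1 library, so no difference below has a replicate check and no p-value is given.

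Cells make palmitate from citrate in the cytosol. ATP citrate lyase (*ACLY*) splits citrate into acetyl-CoA, acetyl-CoA carboxylase (*ACACA*) turns it into malonyl-CoA, and fatty acid synthase (*FASN*) joins these units with NADPH that malic enzyme (*ME1*) helps to supply. *ELOVL6* lengthens palmitate, *SCD* places the first double bond in saturated chains, *FADS1* and *FADS2* desaturate polyunsaturated chains, *ACSL3* links free fatty acids to coenzyme A, and the transcription factor encoded by *SREBF1* (SREBP-1) is known to activate many of these genes. High FASN levels are a known feature of HER2+ breast cancer cells.

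Between 21420115 and 34112381 reads were recovered on genes per library, and the values are estimated read counts that the authors scaled to a common upper quartile of about 1000. A difference is given as log2(value + 1), and a gene is said to have risen or fallen where its values differed at least 2-fold on that scale. Folds are plain ratios of 2 values, with a 95% counting interval that covers counting error only, since PCR reads are not independent molecules. Shares over all genes refer to the 14429 genes that reached a value of 10 in any library. All 10 genes passed, but *FADS1* passed it only through BT474m1. The 5 luminal and HER2 markers (*ERBB2*, *EPCAM*, *KRT8*, *KRT18*, *KRT19*) were above the level of 3 reads in every library. The summed value of 4 leukocyte markers lay between 0 and 6.44 units. In bulk libraries such as these, fewer cells of a kind and less RNA per cell cannot be told apart. In RefSeq, *SREBF1*, *ACLY*, *ACACA* and *FASN* lie on chromosome 17, *FADS1* and *FADS2* on chromosome 11, *SCD* on 10, *ME1* on 6, *ELOVL6* on 4 and *ACSL3* on 2.

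In DMSO the lines differed most at the desaturases, as the plot of levels per kilobase shows. *FADS2*, the delta-6 desaturase, had a value of 5.01 in SKBR-3 cells (7 reads) and 26466 in BT474m1 cells (56134 reads). Its ratio was 5282 (counting interval 2563 to 13138), and no other of the 14429 genes had a larger log2 difference in that direction. *FADS1*, the neighbouring delta-5 desaturase, had a value of 5.01 in SKBR-3 cells (7 reads) and 2432 in BT474m1 cells. The 2 genes overlap in the RefSeq annotation, so the division of reads between them is uncertain. Every SKBR-3 library held few reads of either, with *FADS1* at 1 to 10 reads and *FADS2* at 6 to 33 reads, whereas each BT474m1 library held at least 1400 reads of *FADS1* and 9315 of *FADS2*.

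Of the 10 genes, 5 were higher in BT474m1 cells at the 2-fold threshold, where 26.8% of all genes were, and 2 were lower, where 15.6% of all genes were. *ACACA* was 11.4-fold higher in BT474m1 cells (interval 10.95 to 11.9), at 18109 against 1584, the largest difference of the 10 after the 2 desaturases. *SCD* was 3.76-fold higher (interval 3.71 to 3.82) and *ACSL3* 2.15-fold higher (interval 2.09 to 2.20). *FASN* was 2.26-fold lower in BT474m1 cells, and *ACLY* 2.22-fold lower. *SREBF1*, *ME1* and *ELOVL6* were 1.67-fold, 1.57-fold and 1.17-fold lower, below the threshold.

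The order of levels per kilobase of transcript differed as well. In SKBR-3 cells *FASN* came first, at 11379.7 units per kilobase and place 52 among all genes of known length, followed by *ACLY* at 3443 and *SCD* at 2957. In BT474m1 cells *SCD* came first, at 11122 units per kilobase and place 44, followed by *FADS2* at 8562 and *FASN* at 5046. *ELOVL6* and *ME1* were the lowest in BT474m1 cells, at 202 and 295 units per kilobase. In SKBR-3 cells the lowest genes were *FADS1* and *FADS2*, whose 7 reads each do not separate them. *ACSL3* and *ACACA* were close neighbours in BT474m1 cells, at 1905 and 1809 units per kilobase, and with 1 library per group their order has no replicate check.

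**Figure D1:**
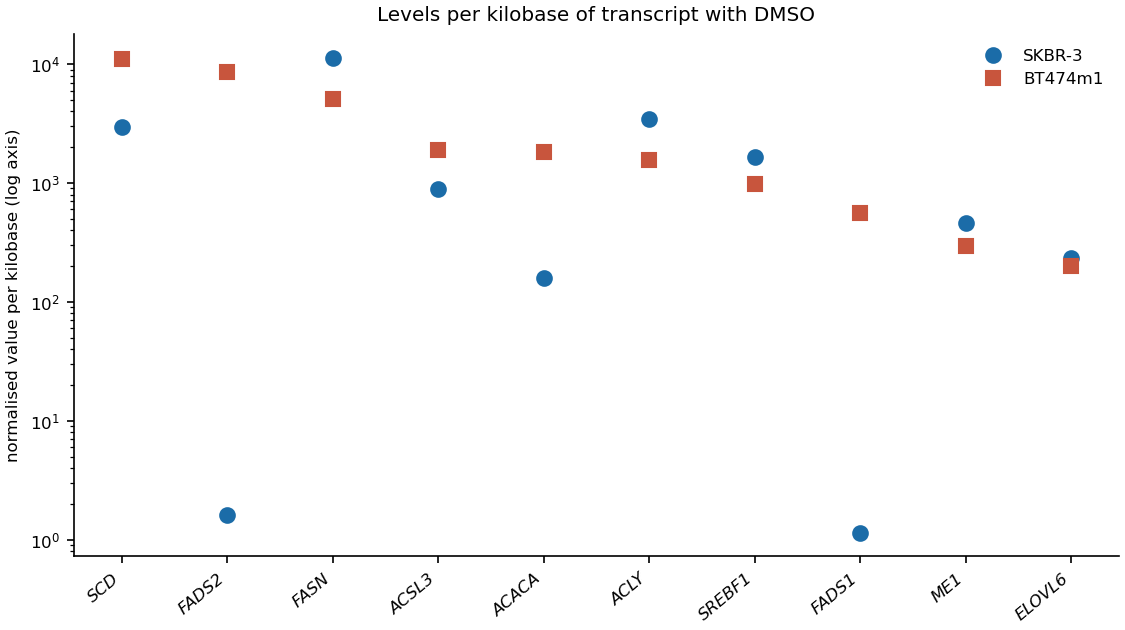
Normalised value per kilobase of transcript (y axis, log scale) of the 10 genes (x axis, ordered by their level in BT474m1) in the DMSO library of SKBR-3 (circles) and of BT474m1 (squares). *FADS2* and *FADS1* sit at 1.62 and 1.15 units per kilobase in SKBR-3 and at 8562 and 557 in BT474m1, while *ELOVL6* differs by 1.17-fold between the lines.

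JQ1 alone gave higher values of *SREBF1*, *FASN* and *SCD* in both lines, whereas *ACLY* and *ACACA* had ratios of 0.989 to 1.09. *SREBF1* had values of 8108 with DMSO and 30582 with JQ1 in SKBR-3 cells, and of 4852 and 13399 in BT474m1 cells. It rose 3.77-fold (interval 3.70 to 3.85) and 2.76-fold (interval 2.70 to 2.82), the largest log2 rise of the 10 genes in each line. *SREBF1* overlaps *RAI1* in the annotation, and the labels name 2 library kits, only 1 of them by name stranded, so reads of overlapping genes may be shared.

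*FASN* had values of 96318 with DMSO and 297865 with JQ1 in SKBR-3 cells, where it was the gene with the highest value of all in the JQ1 library. It took 0.609% of that line's DMSO reads and 1.70% of its JQ1 reads. The rise in SKBR-3 cells was 3.09-fold (interval 3.07 to 3.11), and in BT474m1 cells the values of 42713 and 77244 gave a ratio of 1.81 (interval 1.79 to 1.82), below the threshold. *SCD* had values of 15512 and 44773 in SKBR-3 cells and of 58336 and 127178 in BT474m1 cells, where it was the gene with the highest value in the JQ1 library. It rose 2.89-fold (interval 2.84 to 2.93) and 2.18-fold (interval 2.17 to 2.19). The desaturase was thus above its DMSO value with JQ1 in both lines, and by more in SKBR-3 cells.

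*FADS2* rose 2.67-fold in BT474m1 cells with JQ1 (interval 2.64 to 2.69), from 26466 to 70570 units. In SKBR-3 cells it went from 7 to 33 reads, a ratio of 4.24 with the wide interval of 1.85 to 11.4. *FADS1* was at 3864 against 2432 in BT474m1 cells, a ratio of 1.59. *ACSL3*, an acyl-CoA synthetase of the endoplasmic reticulum and lipid droplets, had ratios of 1.65 in SKBR-3 cells and 1.17 in BT474m1 cells. All 3 were thus above DMSO in BT474m1 cells, though only *FADS2* passed the threshold.

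*ELOVL6* differed between the 2 lines with JQ1. In SKBR-3 cells its value was 1545 with DMSO and 1774 with JQ1 (ratio 1.15, interval 1.08 to 1.22, a log2 change of 0.20 that becomes 0.05 with equal totals), and in BT474m1 cells 1324 and 400, which is 3.31-fold lower (fold of JQ1 over DMSO 0.302, interval 0.279 to 0.327). *ME1* was below DMSO in both lines, at 1155 against 1541 in SKBR-3 cells and 803 against 983 in BT474m1 cells. Both of these changes in *ME1* were under 2-fold.

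With JQ1 in SKBR-3 cells, 4 of the 10 genes rose and 0 fell, where 3.75% of all genes rose and 11.8% fell. In BT474m1 cells 3 rose and 1 fell, where 4.81% of all genes rose and 11.8% fell. The median log2 fold change of the 10 genes was 0.52 in SKBR-3 cells and 0.45 in BT474m1 cells, beside −0.08 and −0.06 over all genes. Without *FADS1* and *FADS2* these medians were 0.46 and 0.17. The 20 genes with the highest values took 14.0% of the SKBR-3 JQ1 library and 8.50% of the DMSO library of that line. Of the 5 luminal and HER2 markers, 3 keratin genes (*KRT8*, *KRT18* and *KRT19*) rose with JQ1 in SKBR-3 cells, *KRT8* from 59145 to 211202 units, with a median log2 fold change of 1.47 over the 5, and 0 rose in BT474m1 cells (median −0.02). *ERBB2* rose with lapatinib in SKBR-3 cells, from 112656 to 277859 units, and *ERBB2*, *KRT8* and *KRT18* rose there with both drugs. In BT474m1 cells 0 of the 5 rose or fell with any treatment. The part of these markers in the changes of the 10 genes was not tested.

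**Figure D2:**
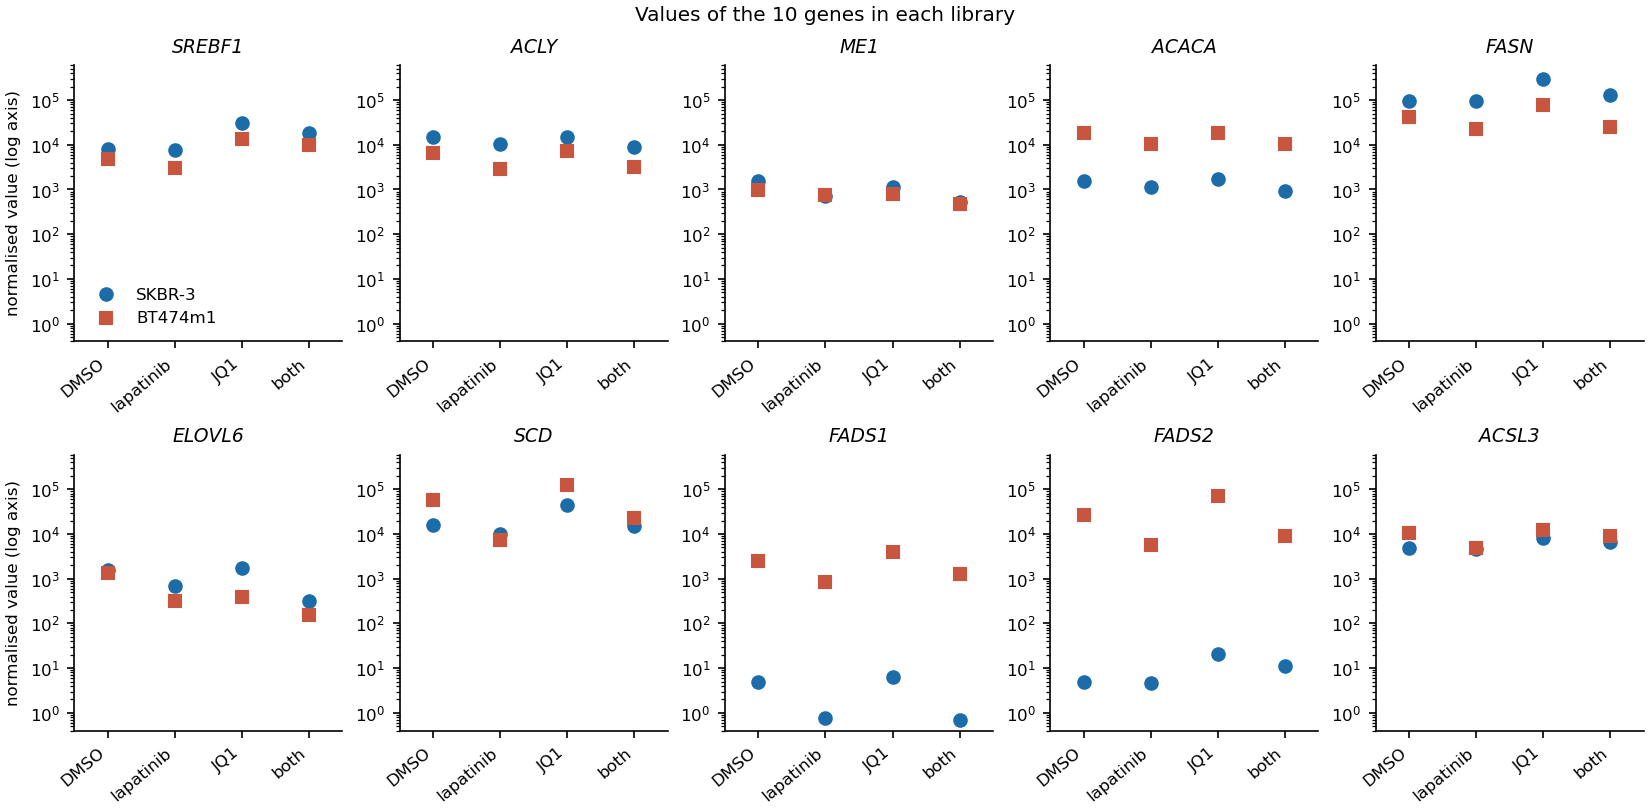
Normalised value (y axis, log scale, the same range in every panel) of each of the 10 genes in the 4 libraries of SKBR-3 (circles) and of BT474m1 (squares), with 1 point per library. The JQ1 points of *SREBF1*, *FASN* and *SCD* are the highest of each line, and *FADS1* and *FADS2* lie at 21.3 units or lower in every SKBR-3 library.

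The upstream sequences of *SREBF1* and *SCD* are shown because these 2 genes rose with JQ1 in both lines on 10292 reads or more per library. *FADS2* also passed the threshold in both lines, on 7 and 33 reads in SKBR-3 cells, and its 2 windows, which hold no sterol element core, CCAAT box or E-box, are not printed. They are the 250 bases before a start site in RefSeq (build GRCh38.p14), read 5′ to 3′ on the strand of the gene, *SREBF1* at chr17:17836987-17837236 on the minus strand and *SCD* at chr10:100346983-100347232 on the plus strand. Capitals mark every match, on either strand, to the core CACNCCAC of a sterol regulatory element, the E-box CACGTG, the CCAAT box or the GC box GGGCGG. No match overlaps another in these windows.
SREBF1: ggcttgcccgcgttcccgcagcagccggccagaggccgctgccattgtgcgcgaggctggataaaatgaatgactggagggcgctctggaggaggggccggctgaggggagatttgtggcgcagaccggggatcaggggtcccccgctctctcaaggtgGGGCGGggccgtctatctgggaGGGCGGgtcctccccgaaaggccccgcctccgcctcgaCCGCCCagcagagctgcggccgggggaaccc
SCD: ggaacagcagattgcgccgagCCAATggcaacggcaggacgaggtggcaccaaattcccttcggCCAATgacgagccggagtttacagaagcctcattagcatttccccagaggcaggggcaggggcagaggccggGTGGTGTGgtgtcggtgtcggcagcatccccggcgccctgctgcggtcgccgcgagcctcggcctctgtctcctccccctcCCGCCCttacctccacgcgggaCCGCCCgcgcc

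The *SCD* window holds 1 sterol element core, 114 bases before the start, 2 CCAAT boxes at 229 and 186 bases and 2 GC boxes at 33 and 11 bases. The *SREBF1* window holds 3 GC boxes, at 91, 69 and 31 bases, and none of the other 3 motifs. RefSeq windows were matched for 9 of the 10 genes, all but *FASN*, with 13 start sites between them. Of these 13 windows, 2 held the sterol element core (1 of *SCD* and 1 of the 3 of *ACACA*), 6 the CCAAT box, 11 the GC box and 0 the E-box. The windows of *ACLY* overlap, as do those of *FADS2*, and the CCAAT boxes of *ACLY* are counted in both of its windows. By gene, 4 of the 9 held the CCAAT box and 9 the GC box. Of 35116 RefSeq windows of this length, the sterol element core was in 4.87%, the CCAAT box in 32.0%, the GC box in 42.6% and the E-box in 6.34%. These matches are letters only, and no binding was measured in these files.

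With lapatinib alone all 10 genes were below their DMSO value in both lines, where 44.3% of all genes in SKBR-3 cells and 44.7% in BT474m1 cells were, by 1.01-fold to 7.83-fold when *FADS1* and *FADS2* in SKBR-3 cells are set aside. The largest fall was that of *SCD* in BT474m1 cells, from 58336 to 7451 units, 7.83-fold. In SKBR-3 cells *SCD* was 9920 against 15512, which is 1.56-fold lower. On the log2 scale the change was −2.97 in BT474m1 cells and −0.64 in SKBR-3 cells, a difference of −2.32 (counting interval −2.36 to −2.28) between the lines that had no replicate to test it.

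*FADS2* fell 4.72-fold in BT474m1 cells, from 26466 to 5612 units, and *FADS1* fell 2.88-fold, from 2432 to 843. In SKBR-3 cells *FADS2* was at 6 reads against 7, which cannot show a difference at this depth. *FADS1* was at 1 read against 7, a ratio of 0.153 with an interval of 0.00339 to 1.19, so its place past the threshold rests on too few reads to exclude no change. The fall of both desaturases with lapatinib was therefore measurable in BT474m1 cells alone.

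*ELOVL6* fell in both lines with lapatinib, from 1545 to 671 in SKBR-3 cells (2.30-fold) and from 1324 to 311 in BT474m1 cells (4.25-fold). *ME1* fell 2.20-fold in SKBR-3 cells, from 1541 to 701, and was 1.32-fold lower in BT474m1 cells, at 744 against 983. These were the largest changes of the 10 genes in SKBR-3 cells apart from *FADS1*. *ACLY* was lower by 1.39-fold in SKBR-3 cells (10609 against 14780) and fell 2.36-fold in BT474m1 cells (2824 against 6653). *ACACA* was lower by 1.40-fold and 1.76-fold, below the threshold in each line.

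*FASN* barely differed with lapatinib in SKBR-3 cells, at 95035 against 96318 (ratio 0.987, interval 0.979 to 0.994). In BT474m1 cells it was 22300 against 42713, 1.92-fold lower. *SREBF1* followed the same order, with 7560 against 8108 in SKBR-3 cells and 2986 against 4852 in BT474m1 cells. *ACSL3* was 1.05-fold lower in SKBR-3 cells and fell 2.20-fold in BT474m1 cells, from 10622 to 4827. For these 3 genes the SKBR-3 value with lapatinib stayed within 1.07-fold of DMSO.

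Counted together, 0 genes rose and 3 fell with lapatinib in SKBR-3 cells, where 11.1% of all genes rose and 9.44% fell. The 3 include *FADS1*, at 1 read against 7, and 2 fell with a pseudocount of 10 or where the interval had to exclude no change. In BT474m1 cells 0 rose and 6 fell, where 14.0% of all genes rose and 8.06% fell. Their median log2 fold changes were −0.48 and −1.19, beside 0.05 and 0.07 over all genes. The single-drug comparisons of a line share its DMSO library, so their values are given side by side and are not independent.

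**Figure D3:**
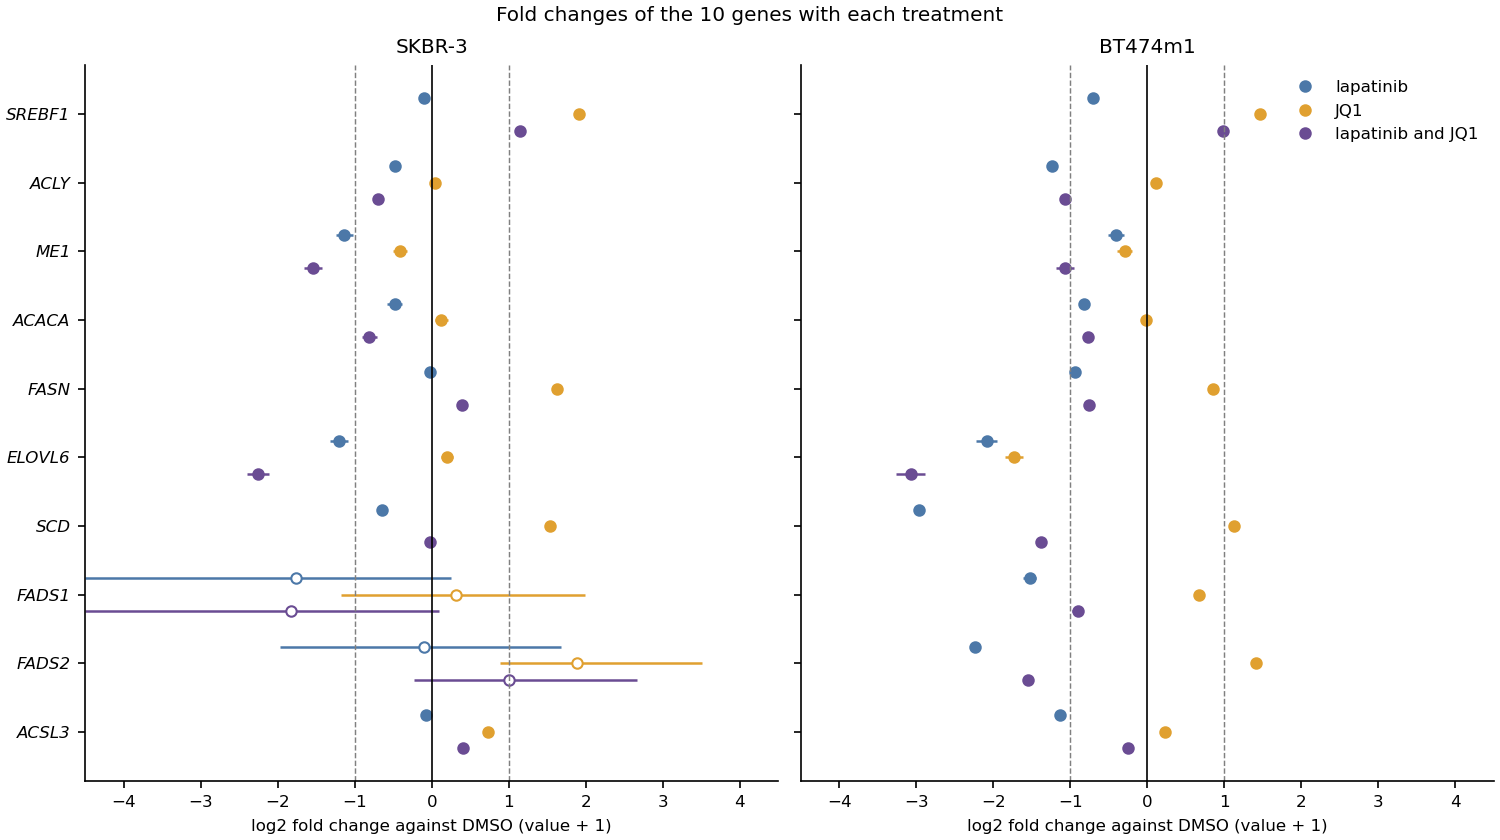
Log2 fold change against DMSO (x axis, value + 1) of each gene (y axis) for the 3 treatments in SKBR-3 (left) and BT474m1 (right). Lines are 95% counting intervals, cut at the edge of the axis, dashed lines mark 2-fold, and open circles rest on a library with 7 reads or fewer. Every lapatinib point lies below 0, and the *SREBF1*, *FASN* and *SCD* points with JQ1 lie above 0 in both lines.

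With both drugs *SREBF1* stayed above DMSO in each line, while 6 of the 10 genes in SKBR-3 cells and 9 in BT474m1 cells were below it, beside 53.7% and 49.1% of all genes. The 6 include *SCD*, whose interval included no change, and *FADS1*, at 1 read against 7. *SREBF1* was at 17956 in SKBR-3 cells, 2.21-fold above DMSO. In BT474m1 cells *SREBF1* was at 9639, 1.99-fold above DMSO and just under the threshold on the log2(value + 1) scale (0.99). It passes the threshold with libraries scaled to equal totals. Against lapatinib alone *SREBF1* rose in each line, 2.38-fold (interval 2.32 to 2.43) in SKBR-3 cells and 3.23-fold (interval 3.13 to 3.33) in BT474m1 cells.

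*ELOVL6* had the lowest log2 fold change of the 10 genes with both drugs in each line. It fell 4.78-fold in SKBR-3 cells, from 1545 to 323, and 8.41-fold in BT474m1 cells, from 1324 to 157. In each line the library with both drugs held the lowest *ELOVL6* value of the 4. *ME1* showed the same, at 528 in SKBR-3 cells (2.92-fold below DMSO) and 470 in BT474m1 cells (2.09-fold below DMSO). *ACLY* was 1.62-fold below DMSO in SKBR-3 cells, at 9097, and fell 2.10-fold in BT474m1 cells, to 3162. *ACACA* was 1.76-fold and 1.70-fold below DMSO.

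*SCD* with both drugs lay between its values with either drug alone in each line. In SKBR-3 cells it was 15272, within 1.02-fold of DMSO (interval of the ratio 0.966 to 1.003). In BT474m1 cells it was 22471, a fall of 2.60-fold against DMSO and a rise of 3.02-fold against lapatinib alone (interval 2.96 to 3.08). *FADS2* in BT474m1 cells was 9076, a fall of 2.92-fold against DMSO, and 1.62-fold above lapatinib alone. *FADS1* was 1301 in BT474m1 cells, also between the values with lapatinib and with DMSO.

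*FASN* was at 126490 in SKBR-3 cells with both drugs, 1.31-fold above DMSO (interval 1.30 to 1.32). In BT474m1 cells its value was 25190, which is 1.70-fold below DMSO and 1.13-fold above lapatinib alone. *ACSL3* had the same pair of directions, at 6587 (1.33-fold above DMSO) and 8972 (1.18-fold below DMSO). None of these *FASN* and *ACSL3* differences reached 2-fold.

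With both drugs against DMSO, 1 gene rose and 3 fell in SKBR-3 cells, where 10.8% of all genes rose and 20.8% fell. The 3 include *FADS1*, at 1 read against 7 (interval of the ratio 0.00305 to 1.07), and 2 fell with a pseudocount of 10. In BT474m1 cells 0 rose and 5 fell, where 14.2% of all genes rose and 15.3% fell. Against lapatinib alone, 2 genes rose and 1 fell in SKBR-3 cells, where 3.22% of all genes rose and 16.2% fell. The rise of *FADS2* among these 2 rests on 16 reads against 6, with an interval of the ratio of 0.890 to 7.47. The fall of *ELOVL6* in that comparison (2.07-fold) does not reach the threshold with scaling by the median of ratios. In BT474m1 cells 2 genes rose and 0 fell against lapatinib alone, where 5.20% of all genes rose and 12.5% fell.

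The 10 genes together took 0.913% of the reads on genes in the SKBR-3 DMSO library, 0.795% in the lapatinib library, 2.29% in the JQ1 library and 1.05% in the library with both drugs. In BT474m1 cells the 4 shares, in that order, were 1.07%, 0.363%, 2.02% and 0.572%. The exact binomial interval of the lowest share was 0.361% to 0.366%. The share was thus lowest with lapatinib and highest with JQ1 in each line. *FASN* made up most of it in SKBR-3 cells, with 462286 of 622826 reads in the JQ1 library, while *SCD*, *FASN* and *FADS2* held 263258, 159895 and 146079 of 685228 reads in the BT474m1 JQ1 library.

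The values with both drugs were also set against the sum of the single-drug changes on the log2 scale, which uses all 4 libraries of a line. In SKBR-3 cells *FASN* was below that sum by 1.22 (both minus sum −1.22, counting interval −1.23 to −1.20), *ELOVL6* by 1.25 (−1.25, −1.43 to −1.07) and *SCD* by 0.91 (−0.91, −0.95 to −0.87). *SREBF1* was below it as well, at −0.67, as were *ACACA*, at −0.45 (−0.59 to −0.32), *ACLY*, at −0.26 (−0.31 to −0.22), and *ACSL3*, at −0.24 (−0.30 to −0.18). *ME1*, at 0.01 (−0.16 to 0.17), did not depart from the sum beyond counting error.

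In BT474m1 cells several of the same genes lay on the other side. *ELOVL6* exceeded the sum by 0.74 (0.50 to 0.98), *ACSL3* by 0.67 (0.62 to 0.71), *SCD* by 0.47 (0.44 to 0.50), *SREBF1* by 0.23 (0.17 to 0.28) and *ACACA* by 0.07 (0.03 to 0.10). *FASN* (−0.68), *FADS2* (−0.72) and *ME1* (−0.37, −0.53 to −0.21) were below it. *ACLY* (0.04, −0.02 to 0.11) and *FADS1* (−0.04, −0.15 to 0.07) did not depart beyond counting error. *FASN* was thus below the sum in both lines, while *ELOVL6*, *SCD*, *ACSL3* and *SREBF1* were below it in SKBR-3 cells and above it in BT474m1 cells. *ACACA* had the same pair of directions, but by only 0.07 in BT474m1 cells. Values of this departure over all genes are not given. The spread between replicate cultures is unknown here.

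**Figure D4:**
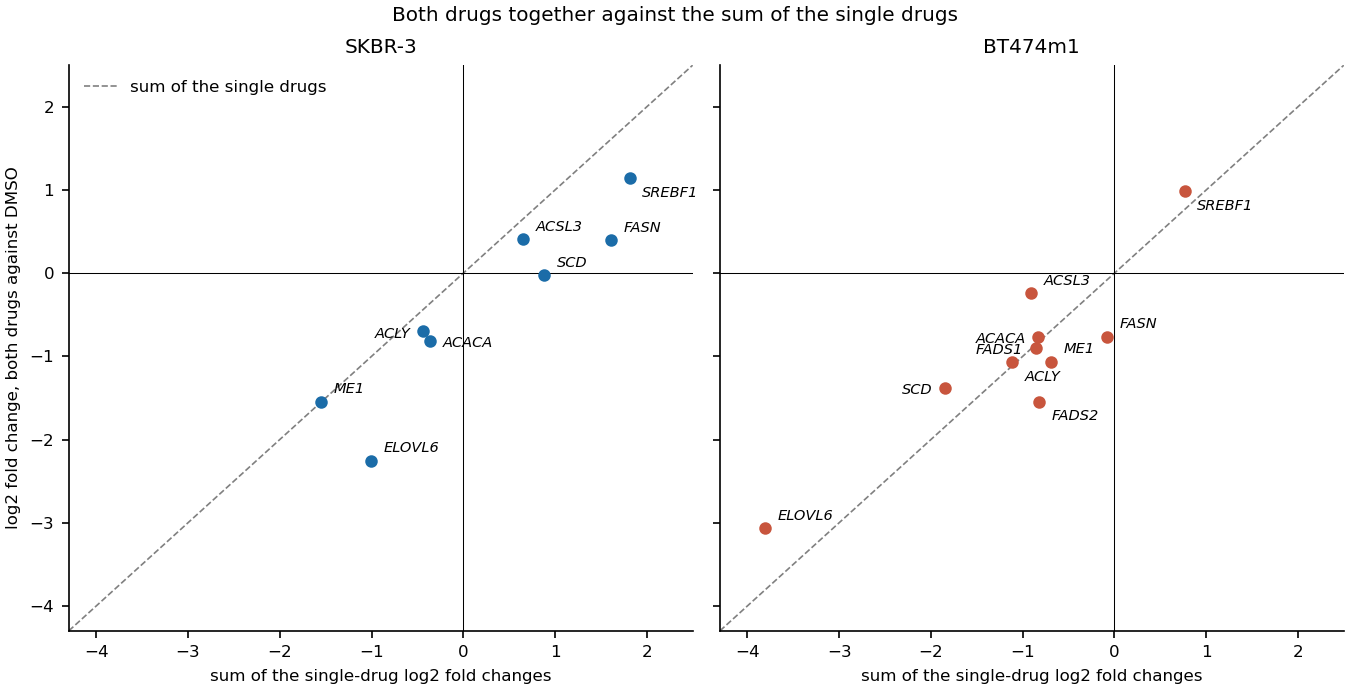
Log2 fold change with both drugs against DMSO (y axis) and the sum of the log2 fold changes with lapatinib alone and JQ1 alone (x axis) for each gene in SKBR-3 (left) and BT474m1 (right), without *FADS1* and *FADS2* in SKBR-3, which had 7 reads or fewer in some libraries. On the dashed line both values are equal, and *FASN* lies below it in both lines, by 1.22 and 0.68.

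Genes around the 10 in the pathway, in 10 lists, were read in the same way. Each count stands beside these shares of all genes. With lapatinib 11.1% rose and 9.44% fell in SKBR-3 cells, and 14.0% rose and 8.06% fell in BT474m1 cells. With JQ1 3.75% rose and 11.8% fell in SKBR-3 cells, and 4.81% rose and 11.8% fell in BT474m1 cells. With both drugs 10.8% rose and 20.8% fell in SKBR-3 cells, and 14.2% rose and 15.3% fell in BT474m1 cells. Among 21 genes of transcriptional control (the SREBP, LXR, ChREBP and NF-Y systems and other regulators), 1 rose and 1 fell with lapatinib in SKBR-3 cells and 1 rose and 3 fell in BT474m1 cells. With JQ1 1 rose and 2 fell in SKBR-3 cells, and 0 rose and 1 fell in BT474m1 cells. *PPARG*, among the other regulators, fell with lapatinib in BT474m1 cells and with JQ1 in each line, from 22.2 units to 0 in BT474m1 cells. *INSIG1*, which holds SREBP precursors in the endoplasmic reticulum, had values of 594, 172, 1345 and 375 in SKBR-3 cells (DMSO first, then lapatinib, JQ1 and the combination), and of 3174, 366, 4556 and 1079 in BT474m1 cells. It fell with lapatinib in both lines, by 1.79 and 3.11 on the log2 scale.

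*SREBF2*, *SCAP* and *MLXIPL* stayed within 2-fold of DMSO. *SREBF2*, the gene of the paralogous factor SREBP-2, had values of 2638, 2681, 3082 and 1939 in SKBR-3 cells and of 6477, 3481, 6127 and 3852 in BT474m1 cells, in the same order of treatments. *SCAP*, the escort of SREBP, lay between 929 and 1880 over the 8 libraries, and *MLXIPL*, which encodes ChREBP, between 57.8 and 133.

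Genes of precursor and NADPH supply came first. Of 9 genes of citrate and acetyl-CoA supply, 1 rose and 1 fell with lapatinib in SKBR-3 cells and 0 rose and 1 fell in BT474m1 cells, and with JQ1 0 rose and 1 fell, and 1 rose and 0 fell. Of 9 measured NADPH genes, 0 rose and 1 fell with lapatinib in each line, and 0 rose with both drugs while 2 fell in SKBR-3 cells and 4 in BT474m1 cells. *MTHFD1*, an enzyme of folate metabolism, fell with lapatinib by 1.06 and 1.13 on the log2 scale and with both drugs by 1.71 and 1.86. *ME1* was therefore not the only lowered gene linked to NADPH supply.

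Genes nearest in function to *FASN* and the desaturases were counted next, and their shares can be read against those of all genes given above. Among 11 partners of synthesis, such as *ACACB* and *MID1IP1*, 1 rose and 0 fell with lapatinib in each line, and 1 rose and 2 fell with JQ1 in SKBR-3 cells and 0 rose and 1 fell in BT474m1 cells. Of 15 measured genes of elongation and desaturation other than the 4 members, 1 rose and 0 fell with lapatinib in SKBR-3 cells and 1 rose and 1 fell in BT474m1 cells. With JQ1 1 rose and 0 fell, and 2 rose and 1 fell. *SCD5*, a paralogous stearoyl-CoA desaturase gene, was at 0 in 3 SKBR-3 libraries and at 1 read in the other, and between 354 and 530 units in BT474m1 cells.

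Among 16 acyl-CoA synthetases and binding proteins, 3 rose and 2 fell with lapatinib in SKBR-3 cells and 3 rose and 3 fell in BT474m1 cells, and with JQ1 1 rose and 4 fell, and 0 rose and 1 fell. Some of these calls rest on few reads, such as the fall of *FABP5* with lapatinib in SKBR-3 cells, from 7.87 to 1.53 units. *SLC27A1*, a fatty acid transporter, rose in both lines with lapatinib (1.24 and 1.35 on the log2 scale) and with both drugs (1.19 and 1.52). Of 19 measured genes of glycerolipid synthesis and droplets, 2 rose and 6 fell with both drugs in SKBR-3 cells and 4 rose and 4 fell in BT474m1 cells. *PNPLA2*, the droplet triglyceride lipase, rose by 1.66 and 1.38, and *PLIN2*, a droplet coat protein, fell by 4.75 and 1.10. The SKBR-3 fall of *PLIN2* rests on few reads, at 3.44 units with both drugs, and its log2 change has an interval of −6.74 to −3.85. Of 4 measured uptake genes, 1 rose and 1 fell with JQ1 in SKBR-3 cells, and 0 rose and 1 fell in BT474m1 cells.

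Oxidation genes and genes of stability and kinase control were counted as well. Of 22 measured genes of fatty acid oxidation, 4 rose and 1 fell with lapatinib in SKBR-3 cells and 2 rose and 1 fell in BT474m1 cells, and with JQ1 0 rose and 3 fell in each line. Of 10 genes of stability and kinase control, 0 rose with any treatment in either line. With lapatinib 1 fell in SKBR-3 cells and 0 in BT474m1 cells, and with JQ1 2 and 1 fell. The lapatinib fall was that of *USP2*, and with JQ1 *USP2* fell in both lines, from 7.54 to 1.45 units in BT474m1 cells. *PRKAA2* also fell with JQ1 in SKBR-3 cells, from 5.01 to 0.644 units. *PRKAG2*, a subunit of the AMP-activated kinase, fell with both drugs by 1.93 and 1.58 on the log2 scale.

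Likeness of pattern to *FASN* and *SCD* was read over the 8 libraries, after centring each line on the mean of its 4 log2 values, among 9840 genes that reached 100 units in both lines. The 5 genes nearest to *FASN*, by the root mean square difference, were *ESPN* (0.20), *ITGB4* (0.24), *GAPDH* (0.26), *OSBP2* (0.26) and *PLXNA2* (0.27). The 5 nearest to *SCD* were *C12orf34* (0.30), *INSIG1* (0.34), *PC* (0.39), *SPRED1* (0.41) and *TUBB3* (0.47). *FASN* itself was 23rd from *SCD*, at 0.65, whereas *SCD* was 2296th from *FASN* at that distance. *SREBF1* was 133rd from *SCD*, at 0.82, and 484th from *FASN*, at 0.53. *INSIG1* was thus nearer to *SCD* than any of the other 7 members that reached 100 units in both lines. Distances of this kind describe these 8 libraries, which share their scaling, and are given with no test.

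Adipocyte, fibroblast and endothelial markers were read for other cell types. *ADIPOQ*, *LEP* and *CIDEC*, among 5 adipocyte markers, were at 21.5 units or lower in every library, and the summed value of the 5 was 16.9 to 154. *PLIN1*, a droplet protein among them, was at 11.3 and 15.7 units with DMSO and at 109 and 58.2 with lapatinib in BT474m1 and SKBR-3 cells. *ADIPOQ*, in contrast, went from 5.19 to 0 and from 21.5 to 18.4 units, in that order of lines. *LIPE*, a lipase among the 5, was at 56.5, 29.9, 12.9 and 5.50 units in SKBR-3 cells (DMSO, lapatinib, JQ1 and both) and at 28.8, 43.98, 4.35 and 9.91 in BT474m1 cells. *COL1A1* was the only one of 4 fibroblast markers above 3 reads, at 24.1 to 124 units in SKBR-3 cells and 337 to 1253 in BT474m1 cells. Its log2 changes with lapatinib, JQ1 and both drugs were −1.785, −0.603 and −2.316 in SKBR-3 cells. In BT474m1 cells they were −0.0495, −1.666 and −1.892. The 3 endothelial markers summed to 149, 95.7, 21.9 and 28.2 units in SKBR-3 cells (DMSO first, then lapatinib, JQ1 and the combination), and to 189, 30.7, 15.5 and 6.997 in BT474m1 cells, with *PECAM1* at or under 1 read. Their part in the results above was not tested.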

How the data were processed

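Each deposited table holds a signal for every gene, which by the names the authors gave the tables is an RSEM estimate of read counts, after scaling each library so that the upper quartile of its genes above 0 is near 1000. The submitters' processing notes name hg19, Picard 1.88, SAMtools 1.2, RSEM, DESeq, R 3.2.2 and DESeq2 1.12.3, without roles, whereas the study's methods name another assembly and another aligner, so the assembly and the aligner are uncertain. The 8 libraries were grouped by the labels, at 1 per group.

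The value of 1 read (0.471 to 0.766 units) was recovered as the common step between values. With it, 85.0% to 86.4% of values above 0 were whole reads within 0.05 of a read, and the limit of 3 reads was 1.41 to 2.30 units. Genes at 10 or more in at least 1 library were kept, which left 14429 and removed 6102. Differences were taken on log2(value + 1) and called at 2-fold, with no test across replicates, and 95% counting intervals were Clopper-Pearson intervals of the reads of 2 libraries. The scripts were tested on simulated counts. Transcript lengths are those of the canonical GENCODE 44 transcripts, for 20034 genes, and overlaps and promoter windows come from RefSeq, on GRCh38. The 10 genes, and the 15 lists with 167 genes (10 pathway lists and 5 marker lists, all found), were chosen with earlier results of these data known. Every member is named. From the lists, genes are named where they changed at least 2-fold the same way in both lines against DMSO with a value of 100 or more, up to 4 per list, and *SREBF2*, *INSIG1*, *SCAP* and *MLXIPL* always. *ACACB*, *MID1IP1*, *SCD5*, *PPARG*, *FABP5*, *USP2*, *PRKAA2* and the marker genes were named beside that rule. The 5 genes nearest to *FASN* and to *SCD* are named. An item that this rule would also name is not reported here. The alternatives tried were another pseudocount (10), other scalings (median of ratios, equal totals) and other filters (none, or 100). A call that needs the interval to exclude no change was added after the data were seen. Computation used Python 3.11.15 with scipy 1.17.1, pandas 2.3.3 and numpy 2.4.6, and plots used matplotlib 3.10.9.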

Additional observations from a re-analysis of the deposited data

Results flagged for a closer look

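With 1 library per group, 5 of the 10 genes lay on opposite sides of their reference library in the 2 lines under the same treatment with counting intervals that excluded no change in both lines, and none of these differences was tested. Under the same rule 8.91% of all genes did so with JQ1 (1 of the 10), 14.0% with both drugs against DMSO (2 of the 10) and 11.3% with both drugs against lapatinib alone (2 of the 10), so these counts are close to those of genes in general, and with lapatinib 11.3% of all genes and 0 of the 10 did. *ELOVL6* had a log2 fold change with JQ1 against DMSO of 0.199 in SKBR-3 cells and −1.72 in BT474m1 cells, and the former was 0.0536 with equal totals. *FASN* with both drugs against DMSO had 0.393 and −0.762, and *ACSL3* had 0.412 and −0.244. With both drugs against lapatinib alone, *ACLY* had −0.222 and 0.163, and *ACACA* had −0.327 and 0.0521. With scaling by the median of ratios the SKBR-3 values were −0.0613 for *ACLY* and −0.167 for *ACACA*. Opposite signs with an interval that included no change in at least 1 line are not listed here. Of these 10 values, the fall of *ELOVL6* in BT474m1 cells alone was past 2-fold.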

How the results depend on the processing

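No paired analysis was possible because each group held 1 library and the labels give no replicate numbers, and for the same reason no library could be left out. A pseudocount of 10 turned the sign of 0 of 110 log2 values of the 10 genes, scaling by the median of ratios of 3 and scaling to equal totals of 2, none of them past 2-fold. The median of all genes shifted by over 0.1 with equal totals for JQ1 in SKBR-3 cells (−0.139), and with the median of ratios for both drugs against lapatinib in SKBR-3 cells (0.115) and between the lines (−0.149). With the median of ratios 2 members rose with both drugs against DMSO in SKBR-3 cells, and 0 fell against lapatinib alone. With equal totals 1 rose with both drugs against DMSO in BT474m1 cells. In the comparison of both drugs with lapatinib in SKBR-3 cells 1 member rose with a pseudocount of 10, and 1 where the interval had to exclude no change. Over all genes, a pseudocount of 10 left 1028 raised with lapatinib in SKBR-3 cells, 312 raised and 934 lowered with JQ1 in SKBR-3 cells, 442 raised with JQ1 in BT474m1 cells, and, for both drugs against lapatinib, 240 raised and 1508 lowered in SKBR-3 cells and 462 raised in BT474m1 cells. A filter at 100 left 1143 raised with lapatinib in BT474m1 cells, 339 raised and 1011 lowered with JQ1 in SKBR-3 cells, 413 raised and 1047 lowered with JQ1 in BT474m1 cells, 1227 raised with both drugs against DMSO in BT474m1 cells, and, for both drugs against lapatinib, 302 raised and 1502 lowered in SKBR-3 cells and 434 raised and 1146 lowered in BT474m1 cells. Fewer low genes pass in both settings by construction. The largest move of a member was 1.34, for *FADS1* with both drugs against DMSO in SKBR-3 cells under a pseudocount of 10. Depth limits *FADS1* and *FADS2* in SKBR-3 cells, where 1 to 33 reads stand behind a value.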

Other observations

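The library with both drugs was also read against the library with JQ1 alone, a comparison chosen after the data were seen and with 1 library on each side. All 10 genes were lower with both drugs in each line, where 47.8% of all genes were lower in SKBR-3 cells and 45.4% in BT474m1 cells. In SKBR-3 cells this includes *FADS1*, at 1 read against 10, and *FADS2*, at 16 against 33. The median log2 difference of the 10 was −1.03 and −1.27, beside 0 and 0.06 over all genes. *FASN* was lower by 1.24 and 1.62 (log2 differences −1.24 and −1.62), *SCD* had −1.55 and −2.50, and *ELOVL6* had −2.45 and −1.34. *FADS2* in BT474m1 cells had −2.96, the largest of the well covered genes, and *SREBF1* had −0.77 and −0.48. *ACSL3* had −0.31 and −0.47. These comparisons use the same libraries with both drugs as those above.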
